A study of Homo sapiens with 12 samples.

Results

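The 46 genes described here encode the proteins that build the centrosome and its centrioles. They were taken from the deposited gene annotation as the protein-coding genes with a CEP symbol (CEP followed by a digit) together with PCNT, PCM1, SASS6, STIL, CDK5RAP2, CNTROB, NIN, OFD1, CETN2 and CETN3, whatever their expression, out of 58302 genes of which 19817 were protein-coding. Their messenger RNA was counted in 12 libraries of 2 established human non-small-cell lung cancer lines, NCI-H1299 and NCI-H1703, which were given SAHA (vorinostat, a hydroxamate that inhibits histone deacetylases) or its DMSO vehicle. The groups were H1703 with SAHA, H1703 with DMSO, H1299 with SAHA and H1299 with DMSO, with 3 libraries each. The treatment protocol in the labels lasts 24 h and lists SAHA at 2.5, 10 and 40 µM, with 0.1% DMSO as the vehicle. It does not say which dose was sequenced. The labels number the libraries of each group as repeats 1 to 3 under a batch tag, and do not say that repeats were separate cultures, so p-values measure only the spread between these libraries, which may be technical.

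A centrosome is a pair of centrioles, short cylinders of microtubules, embedded in a pericentriolar matrix that anchors the complexes from which new microtubules grow. Once per cell cycle a new centriole forms beside each old one: the kinase PLK4 is recruited to the old centriole, STIL and SASS6 assemble the cartwheel that sets the symmetry of the cylinder, and the new centriole is then elongated, capped and, in mitosis, converted into a centrosome able to duplicate. The older centriole carries appendages that dock it to the plasma membrane when it becomes the basal body of a primary cilium, and granules called centriolar satellites ferry proteins to both structures. Part of this set, such as the cartwheel genes and the midbody gene CEP55, is known to be transcribed mainly in dividing cells, while cilium genes are used mainly by cells that have stopped dividing.

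Count totals ran from 14416126 to 16016332 in H1299 with SAHA and from 15239483 to 16160282 with DMSO, and from 16699843 to 19408852 in H1703 with SAHA and from 15231379 to 18267411 with DMSO. Genes encoded by the mitochondrial genome held 4.0 to 4.23% of the counts in H1299 with SAHA, against 1.96 to 2.22% with DMSO, and 8.77 to 10.93% in H1703 with SAHA, against 5.44 to 6.27% with DMSO. The label calls both lines epithelial: KRT8 and KRT18, keratins of simple epithelia, were counted in both, but CDH1, which encodes E-cadherin, was at 0.161 CPM with SAHA and 0 CPM with DMSO in H1299, against 32 and 92.6 CPM in H1703, and EPCAM was at 0.164 and 0.236 CPM in H1299 and at 2.16 and 2.82 CPM in H1703. The summed level of 8 epithelial markers was 1360 to 1576 CPM in H1299 with SAHA, against 592 to 618 CPM with DMSO, and 2960 to 3441 CPM in H1703 with SAHA, against 4008 to 4467 CPM with DMSO. KRT8 and KRT18 rose in H1299 (log2 1.53 ± 0.08 and 1.07 ± 0.09). There 3 of 5 tested epithelial markers were higher and 0 lower (33.3% and 30.4% of all genes). In H1703, 4 of 8 were higher and 2 were lower (34.7% and 32.6% of all genes). The lower ones were KRT7, another keratin (log2 -1.81 ± 0.10), and CDH1 (-1.51 ± 0.14), while keratin KRT19 rose (4.29 ± 0.12). Levels in CPM are counts relative to library size, with TMM scaling over all 12 libraries. Of 12 multiciliated cell markers, FOXJ1, TEKT1 and DEUP1 stayed under 1 CPM in every library, and the summed level of the list was 28.1 to 31.7 CPM in H1299 with SAHA, 28.2 to 31.7 CPM with DMSO, and 30.8 to 37.3 CPM in H1703 with SAHA, 27.9 to 30.8 CPM with DMSO. Within that list 6 of 8 tested rose and 2 fell in H1299 (33.3% and 30.4% of all genes). In H1703, 4 of 8 rose and 2 fell (34.7% and 32.6% of all genes). DNAI1, of the ciliary motor, rose in both lines (log2 2.06 ± 0.29 in H1299 and 4.08 ± 0.35 in H1703), and MCIDAS, a regulator of multiciliated cell fate, fell in both (-2.16 ± 0.25 in H1299 and -1.67 ± 0.29 in H1703). Among 12 blood, endothelial and fibroblast markers, PTPRC and CD3E were at or near 0 in both lines, while the summed list was at 40.2 to 52.6 CPM in H1299 with SAHA, 2.08 to 3.90 CPM with DMSO, and at 154 to 162 CPM in H1703 with SAHA, 85.1 to 101 CPM with DMSO, mostly from collagen gene COL1A1 and, in H1703, LUM and CD14. Within that list 2 of 2 tested were higher and 0 lower in H1299 (33.3% and 30.4% of all genes). In H1703, 6 of 8 were higher and 0 lower (34.7% and 32.6% of all genes). COL1A1 rose in H1299 (log2 4.77 ± 0.24) and was at 0.05 ± 0.09 in H1703, where LUM rose (3.39 ± 0.13). The part of all these markers in the results was not tested.

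Centrosome genes fell in both lines under SAHA, led by the centriole duplication genes and the main scaffolds of the pericentriolar matrix, while a small group that included CETN2, CEP19 and CEP131 rose. In H1299, 36 of 46 genes were called in either direction (63.8% of the 17277 genes tested were), of which 30 were lower (65.2%, where 30.4% of all genes were lower) and 6 were higher (13.0%, where 33.3% of all genes were higher). In H1703, 34 genes were called (67.4% of 17273 genes), of which 26 were lower (56.5%, against 32.6% of all genes) and 8 were higher (17.4%, against 34.7%). All 46 passed the filter on low counts in both lines, and a gene is called lower or higher at an edgeR quasi-likelihood adjusted p below 0.05, adjusted over all genes tested. The median log2 fold change, SAHA over DMSO, was -0.62 in H1299 and -0.54 in H1703, where that of all genes was 0.02 in each line.

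Falls of 2-fold or more were called for 16 of the 46 genes in H1299 (11.1% of all genes) and for 10 in H1703 (14.9% of all genes). Rises of that size were called for none in H1299 (19.3% of all genes) and for 1 in H1703 (19.5% of all genes). Among protein-coding genes alone the background was 32.4% lower and 34.0% higher in H1299 and 34.1% lower and 36.1% higher in H1703. Every SAHA library lay below every DMSO library for 30 genes in H1299 (31.7% of all genes) and 29 in H1703 (36.1%), and above for 6 in H1299 (37.8%) and 8 in H1703 (36.1%). Within the repeats numbered in the labels, 32 genes were lower with SAHA in all 3 repeats of H1299 (35.7% of all genes) and 30 in all 3 of H1703 (39.9%).

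Summed over the 46 genes, the level was 1264 to 1368 CPM in H1299 with SAHA, against 1904 to 2009 CPM with DMSO, and 1070 to 1091 CPM in H1703 with SAHA, against 1416 to 1450 CPM with DMSO. The sums of SAHA and DMSO libraries did not overlap in either line. A list of 12 proliferation genes, among them MKI67 and CCNB1, fell as well. All 12 were lower in both lines, where 21.9% of the genes tested in both were. Their summed level was 876 to 1057 CPM in H1299 with SAHA, against 2841 to 3239 CPM with DMSO. In H1703 it was 469 to 483 CPM with SAHA, against 2504 to 2572 CPM with DMSO. The part of this list in the centrosome result was not tested. In bulk RNA, fewer cells in division and less of each transcript per cell cannot be told apart.

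**Figure D1:**
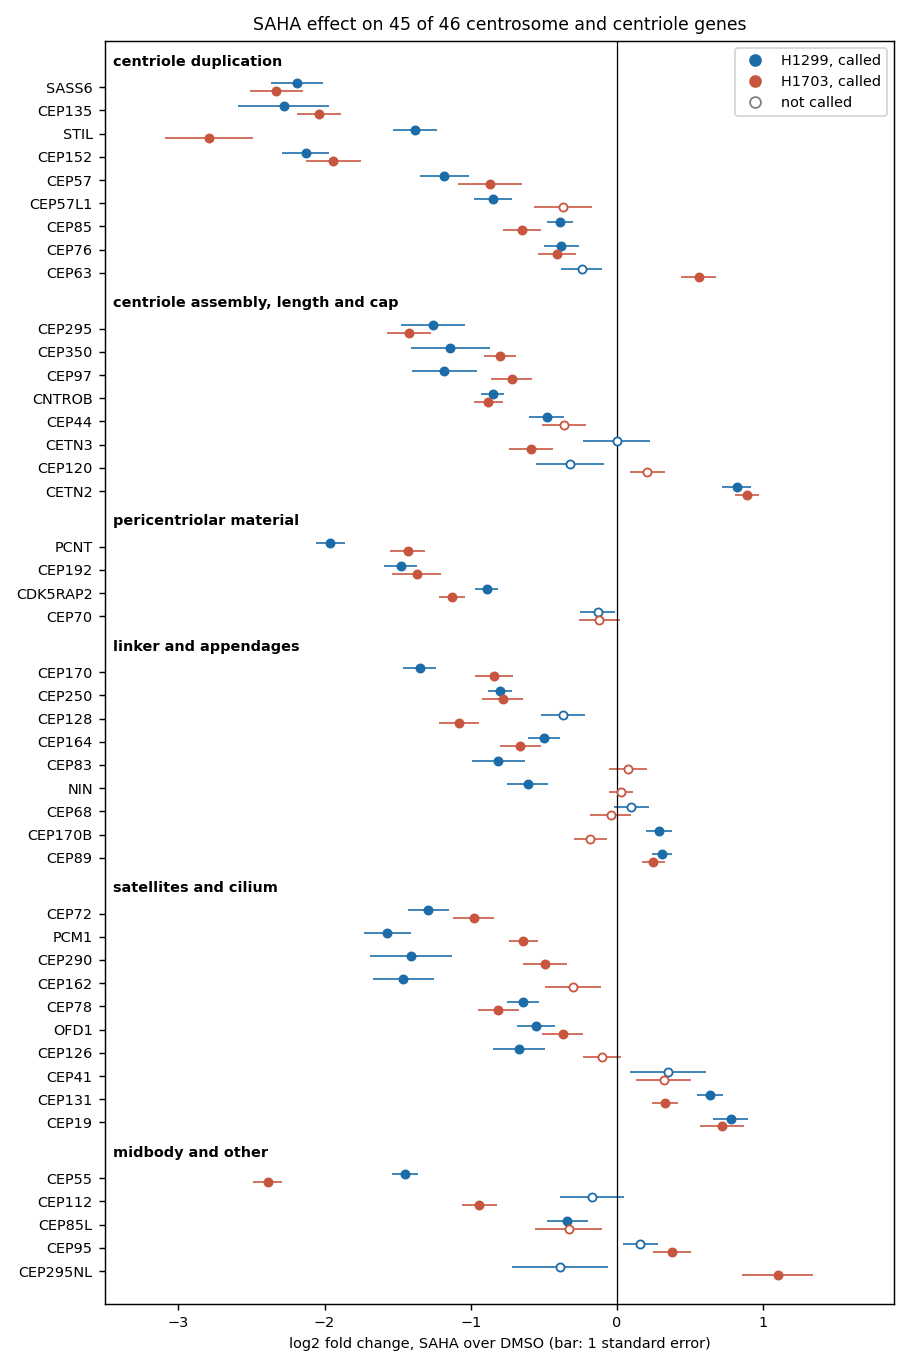
Log2 fold change, SAHA over DMSO, of 45 of the 46 genes in H1299 (blue) and H1703 (red), grouped by role; bars are 1 standard error of the edgeR fit with 3 libraries per group, and open points did not pass the adjusted p of 0.05. The duplication genes reach -2.28 in H1299 and -2.79 in H1703, and the rise of CEP295NL in H1703 reaches 1.10.

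Of the 46 genes, 23 were lower in both lines (50%, where 21.9% of the 15654 genes tested in both lines were), 5 were higher in both (10.9%, against 23.0%) and 0 were called in opposite directions (4.99% of all genes). Those higher in both included CEP131, CEP19, CEP89 and CETN2. Genes called in neither line were CEP120, CEP41, CEP68 and CEP70.

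Promoter sequence is shown for 5 genes. STIL, SASS6 and CEP192 fell in both lines and hold the E2F word searched for, as does CEP57, which is not shown. CEP55 had the smallest adjusted p in H1703, and CETN2 had the largest rise in H1299. The sequences are RefSeq's, on GRCh38.p14, 5′ to 3′ on the strand of the gene, in positions counted from the annotated start, with -1 the base before it. STIL is given from -250 to -1 (chr1:47314148-47314397, minus strand), with a match to the E2F word and 3 CCAAT boxes in capitals. CEP55 is given over the same stretch (chr10:93496362-93496611, plus strand), with a match to the cell cycle homology region (CHR) and a CCAAT box in capitals. Another CHR match of CEP55, from -3 to 3, runs past the end of the stretch and is not in capitals. CETN2 (chrX:152830758-152831007, minus strand) has 6 CCAAT matches in capitals, of which a forward and a reverse one overlap. SASS6 (positions 5 to 34, chr1:100132897-100132926, minus strand) and CEP192 (positions 21 to 50, chr18:12991382-12991411, plus strand) are given as short windows with the E2F word in capitals.
STIL: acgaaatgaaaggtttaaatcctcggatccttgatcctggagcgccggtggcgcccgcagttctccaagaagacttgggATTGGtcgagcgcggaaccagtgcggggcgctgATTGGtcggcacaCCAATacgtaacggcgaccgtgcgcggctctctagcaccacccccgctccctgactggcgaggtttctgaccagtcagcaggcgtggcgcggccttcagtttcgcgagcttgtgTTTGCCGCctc
CEP55: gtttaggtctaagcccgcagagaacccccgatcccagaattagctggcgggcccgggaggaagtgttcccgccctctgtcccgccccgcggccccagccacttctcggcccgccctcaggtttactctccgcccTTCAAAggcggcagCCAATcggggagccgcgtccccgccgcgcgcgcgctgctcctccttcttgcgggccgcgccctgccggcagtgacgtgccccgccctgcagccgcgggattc
CETN2: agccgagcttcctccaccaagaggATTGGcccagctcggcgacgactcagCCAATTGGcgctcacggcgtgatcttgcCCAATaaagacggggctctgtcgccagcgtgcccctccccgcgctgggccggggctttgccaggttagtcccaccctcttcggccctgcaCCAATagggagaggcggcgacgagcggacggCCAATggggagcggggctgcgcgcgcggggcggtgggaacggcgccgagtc
SASS6: gcagaagccgaGCGCCAAActcaaacttta
CEP192: cagtccgtggacTTTCCCGCtgcacactgc

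The words were searched on both strands of windows running from 250 bases before to 50 bases after each start. The E2F word was TTTNNCGC with NN being CC, CG, GC or GG, the CHR was TTTGAA or TTCGAA, and the third word was CCAAT. Windows were searched for 39 of the 46 genes, 50 windows in all since 10 genes have several starts. Some of the 46 genes were thus left out, while the set of all promoters was used whole. No match to one word overlapped a match to another in these 50 windows. The E2F word stood in 9 of the 50 windows (18%) and in 3.31% of all 35116 promoters of that length. It stood in 16% of the 25 windows of genes lower in both lines and in 0 of 4 of genes higher in both. Of the 21 windows of the other genes, 23.8% held it. It was found for 8 genes: STIL, SASS6, CEP192 and CEP57, which fell in both lines, and CEP162, CEP112, CEP63 and CEP68, which did not fall in both. The CHR stood in 32% of the 50 windows (16.4% of all promoters) and in 44% of the 25 windows of genes lower in both lines. It stood in 1 of 4 windows of genes higher in both and in 19% of the 21 windows of the other genes. CCAAT stood in 50% of the windows (34.6% of all promoters), in 60% of those of genes lower in both and in 3 of 4 windows of genes higher in both. Of the 21 windows of the other genes, 33.3% held CCAAT. These are matches of letters, not sites shown to be bound.

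The steepest falls were among the centriole duplication genes. Of these, 8 of 9 were lower in H1299 (median log2 fold change -1.18), where 30.4% of all genes were lower. In H1703, where 32.6% of all genes were lower, 7 of 9 were lower (median -0.87) and CEP63 was higher. SASS6, which forms the hub of the cartwheel, fell by 2.19 ± 0.18 on the log2 scale in H1299 (± SE throughout) and by 2.33 ± 0.18 in H1703. CEP152 (ENSG00000103995, chr15:48712928-48811146 on GRCh38), the receptor that brings PLK4 to the centriole, had 7.51, 5.41 and 6.16 CPM in H1299 with SAHA, against 27.5, 23.3 and 30.3 CPM with DMSO. It had 2.78, 3.97 and 2.36 CPM in H1703 with SAHA, against 12, 11.9 and 11.9 CPM with DMSO. In both lines every SAHA library was far below every DMSO library. The log2 fold change of CEP152 was -2.13 ± 0.16 in H1299 (edgeR adjusted p = 5.0e-06) and -1.94 ± 0.19 in H1703 (edgeR adjusted p = 1.5e-05).

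CEP135 (ENSG00000174799, chr4:55948871-56033363), which joins the cartwheel to the microtubule wall, had 5.18, 2.33 and 2.27 CPM in H1299 with SAHA, against 13.7, 15.2 and 17 CPM with DMSO. It had 3.57, 3.33 and 3.54 CPM in H1703 with SAHA, against 12.7, 16.1 and 14.9 CPM with DMSO. Here too the groups were apart in both lines, though the first SAHA library of H1299 was higher than the other two. The fall was 4.84-fold in H1299 (log2 -2.28 ± 0.31, edgeR adjusted p = 3.3e-04) and 4.11-fold in H1703 (log2 -2.04 ± 0.15, edgeR adjusted p = 2.4e-06). STIL (ENSG00000123473, chr1:47250139-47314147), the scaffold that PLK4 phosphorylates so that SASS6 can bind, had 18.5, 22.5 and 25.7 CPM in H1299 with SAHA, against 47.0, 62.5 and 58.3 CPM with DMSO. It had 4.63, 5.02 and 5.64 CPM in H1703 with SAHA, against 21.4, 43.1 and 43.3 CPM with DMSO, where the first DMSO library was well below the other two. The groups were apart in both lines, and the log2 fold change was -1.38 ± 0.15 in H1299 (edgeR adjusted p = 4.5e-05) and -2.79 ± 0.30 in H1703 (edgeR adjusted p = 1.6e-04).

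The other duplication genes moved less. CEP57, which tethers the matrix around the centriole, fell by 1.18 ± 0.17 on the log2 scale in H1299 and by 0.87 ± 0.22 in H1703. CEP85, which promotes the interaction of STIL with PLK4, fell by 0.39 ± 0.09 in H1299 and by 0.65 ± 0.13 in H1703, and CEP76, which restrains reduplication, fell by 0.38 ± 0.12 in H1299 and by 0.41 ± 0.13 in H1703. CEP57L1, a paralog of CEP57, fell in H1299 (-0.85 ± 0.13) and was at -0.37 ± 0.20 in H1703, which passed only without SAHA library 3 (-0.61). The CEP76 call was lost in H1299 without SAHA library 3 (-0.32) or DMSO library 1 (-0.34), and in H1703 without SAHA library 2 (-0.33) or DMSO library 1 (-0.36). CEP63 (ENSG00000182923, chr3:134485743-134575017), the partner of CEP152 at the centriole wall, differed from its partner. It had 14.4, 12.6 and 16.8 CPM in H1299 with SAHA, against 15.2, 16.5 and 18.2 CPM with DMSO, groups that overlapped (-0.24 ± 0.14, edgeR adjusted p = 0.167). In H1703 it had 17.6, 20.4 and 21.1 CPM with SAHA, against 12.7, 13.9 and 14.1 CPM with DMSO, every SAHA library above every DMSO library (0.56 ± 0.12, edgeR adjusted p = 0.00229). Exons of CEP57 share 20.9% of their bases with MTMR2 on the opposite strand, which also fell (log2 -0.71 ± 0.12 in H1299 and -0.90 ± 0.13 in H1703), and the labels name both a directional and a non-directional library.

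**Figure D2:**
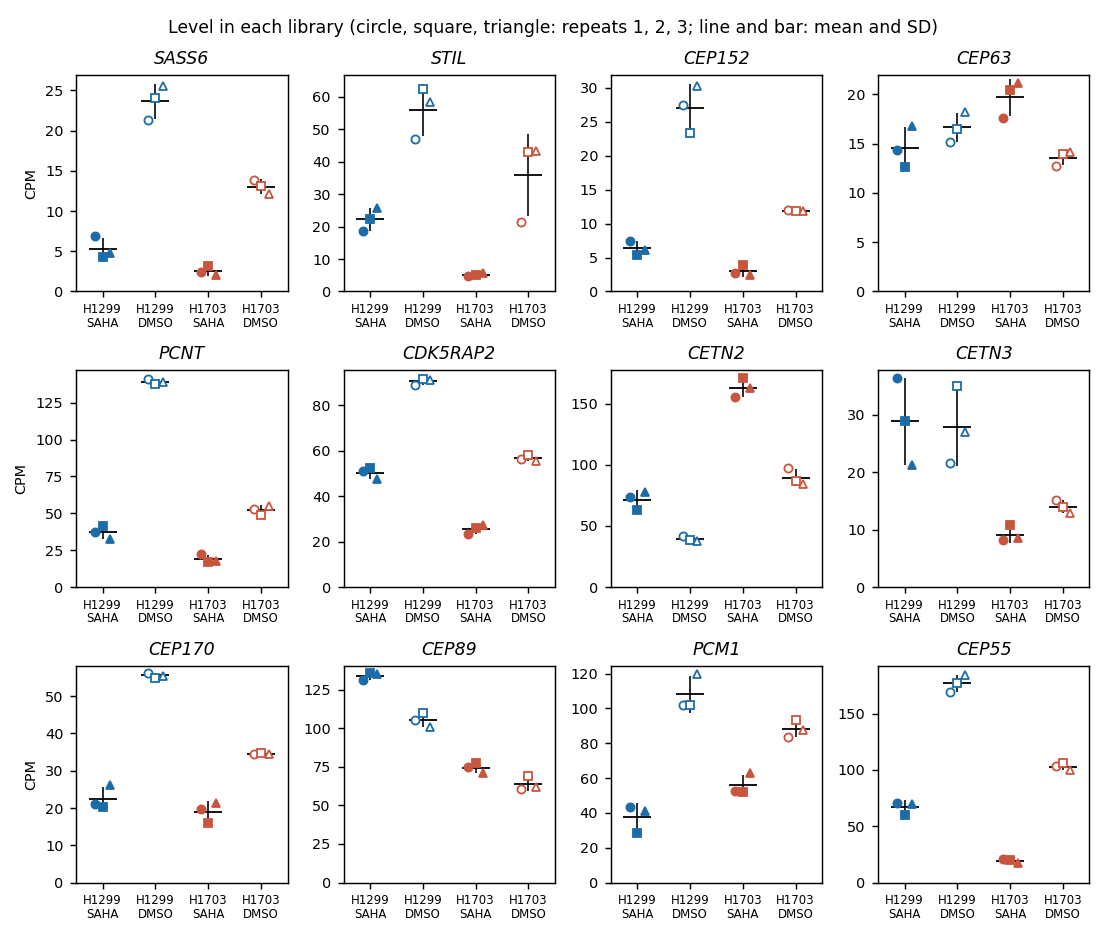
Level in CPM (TMM scaling) of 12 genes taken from the role groups, in each of the 12 libraries; SAHA is left of DMSO within each line, lines and bars are the mean and SD of 3 libraries, and each panel's axis starts at 0. SASS6, STIL, CEP152, PCNT, CEP170 and CEP55 are lower with SAHA in both lines, CETN2 and CEP89 are higher in both, and CEP63 is higher with SAHA in H1703, a difference between lines of 0.72 ± 0.19 on the log2 scale.

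Of the 8 genes of centriole assembly, length control and capping, 5 fell and 1 rose in each line. Among all genes, 30.4% were lower and 33.3% higher in H1299, and 32.6% lower and 34.7% higher in H1703. The median log2 fold changes of the 8 genes were -0.66 in H1299 and -0.65 in H1703. CEP295 (ENSG00000166004, chr11:93661639-93730358), needed to convert new centrioles into centrosomes, had 11.8, 6.36 and 9.54 CPM in H1299 with SAHA, against 19.8, 19.2 and 25.1 CPM with DMSO. It had 5.55, 4.96 and 5.18 CPM in H1703 with SAHA, against 12.7, 13.6 and 16.4 CPM with DMSO. Its groups were apart in both lines. The log2 fold change was -1.26 ± 0.22 in H1299 (edgeR adjusted p = 0.00101) and -1.42 ± 0.15 in H1703 (edgeR adjusted p = 2.6e-05). CNTROB (ENSG00000170037, chr17:7932101-7949918), which encodes centrobin of the daughter centriole, had 36.1, 37.8 and 37.7 CPM in H1299 with SAHA, against 64.9, 67.0 and 62.6 CPM with DMSO. It had 28.9, 26.8 and 23.5 CPM in H1703 with SAHA, against 50.6, 51.1 and 45.9 CPM with DMSO. These libraries were tight and the groups apart, with a log2 fold change of -0.85 ± 0.08 in H1299 (edgeR adjusted p = 2.4e-05) and -0.88 ± 0.10 in H1703 (edgeR adjusted p = 5.4e-05). CEP97, which caps the distal end of the centriole with CCP110, fell by 1.18 ± 0.22 in H1299 and by 0.72 ± 0.14 in H1703, and CEP350, a large protein that stabilises centrioles, fell by 1.14 ± 0.27 in H1299 and by 0.80 ± 0.11 in H1703.

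The centrins, small calcium-binding proteins of the centriole lumen, parted. CETN2 (ENSG00000147400, chrX:152826973-152830777), which also serves nucleotide excision repair, had 74.1, 62.7 and 77.7 CPM in H1299 with SAHA, against 41.5, 38.1 and 37.9 CPM with DMSO. It had 156, 171 and 163 CPM in H1703 with SAHA, against 97.7, 87.1 and 84.1 CPM with DMSO. All SAHA libraries were above all DMSO libraries of their line. It rose 1.77-fold in H1299 (log2 0.82 ± 0.10, edgeR adjusted p = 1.1e-04) and 1.85-fold in H1703 (log2 0.89 ± 0.08, edgeR adjusted p = 8.6e-06). CETN3 fell in H1703 (-0.59 ± 0.15) and was at 0.00 ± 0.23 in H1299, where its 3 libraries of each group overlapped widely, and CETN1, the testis centrin, had no count in any library. CEP44, needed for a complete centriole wall, fell in H1299 (-0.48 ± 0.12) and was at -0.36 ± 0.15 in H1703. There it passed with the replicate block (log2 -0.37, edgeR adjusted p = 0.0470) and without SAHA library 3 (-0.50). It also passed in the fit over all 12 libraries (-0.38, edgeR adjusted p = 0.0288). CEP120, an elongation factor, was called in neither line (-0.32 ± 0.23 in H1299 and 0.21 ± 0.12 in H1703). It passed without SAHA library 1 of H1299 (-0.57) and without SAHA library 2 of H1703 (0.31).

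The pericentriolar matrix was lower in 3 of its 4 genes in each line, where 30.4% (H1299) and 32.6% (H1703) of all genes were lower. Its medians were -1.18 in H1299 and -1.25 in H1703. PCNT (ENSG00000160299, chr21:46324122-46445769), which encodes pericentrin, the scaffold that holds the matrix together, had 37.1, 41.3 and 32.8 CPM in H1299 with SAHA, against 141, 138 and 139 CPM with DMSO. In H1703 it had 22.2, 17.2 and 17.8 CPM with SAHA, against 52.8, 49.1 and 55.1 CPM with DMSO. The groups were widely apart in both lines. PCNT fell 3.88-fold in H1299 (log2 -1.96 ± 0.10, edgeR adjusted p = 6.5e-07) and 2.70-fold in H1703 (log2 -1.43 ± 0.12, edgeR adjusted p = 5.3e-06). CDK5RAP2 (ENSG00000136861, chr9:120388869-120580170), which activates the γ-tubulin ring complexes that start microtubules, had 51.2, 52.6 and 47.4 CPM in H1299 with SAHA, against 88.8, 91.8 and 91.0 CPM with DMSO. It had 23.3, 25.8 and 27.3 CPM in H1703 with SAHA, against 56.4, 58.1 and 55.5 CPM with DMSO. Again no SAHA library reached a DMSO library, and the log2 fold change was -0.89 ± 0.08 in H1299 (edgeR adjusted p = 1.7e-05) and -1.13 ± 0.09 in H1703 (edgeR adjusted p = 4.2e-06). CEP192, which recruits the kinases PLK4 and AURKA, fell by 1.48 ± 0.11 in H1299 and by 1.37 ± 0.17 in H1703. CEP70, a γ-tubulin binding protein, was at -0.13 ± 0.12 in H1299 and -0.12 ± 0.14 in H1703 and was called in neither.

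Genes of the linker between centrioles and of the appendages were mixed. In H1299, 5 of 9 fell and 2 rose (median -0.50), where 30.4% of all genes were lower and 33.3% higher. In H1703, 4 fell and 1 rose (median -0.18), where 32.6% of all genes were lower and 34.7% higher. CEP170 (ENSG00000143702, chr1:243124428-243255348), a subdistal appendage protein that binds microtubules, had 21.0, 20.4 and 26.2 CPM in H1299 with SAHA, against 56.2, 55.0 and 55.5 CPM with DMSO. It had 19.8, 15.9 and 21.4 CPM in H1703 with SAHA, against 34.4, 34.8 and 34.5 CPM with DMSO. The DMSO libraries were tight and all lay above the SAHA libraries. Its log2 fold change was -1.35 ± 0.11 in H1299 (edgeR adjusted p = 9.8e-06) and -0.84 ± 0.13 in H1703 (edgeR adjusted p = 2.4e-04). The pseudogene CEP170P1, a near copy that could share reads with CEP170, fell as well, to 4.74 ± 0.604 CPM in H1299 with SAHA, against 16.2 ± 1.56 CPM with DMSO (SD, n = 3). CEP128 (ENSG00000100629, chr14:80476983-80959517), which anchors the subdistal appendages, had 22.8, 17.4 and 19.1 CPM in H1299 with SAHA, against 20.5, 24.9 and 28.7 CPM with DMSO, groups that overlapped (-0.37 ± 0.15, edgeR adjusted p = 0.0609). It passed there without SAHA library 1 (-0.48) or DMSO library 1 (-0.51), and with no filter on low counts (-0.37, edgeR adjusted p = 0.0493). In H1703 it had 6.08, 5.25 and 5.18 CPM with SAHA, against 11.9, 11.1 and 12.6 CPM with DMSO, with no overlap (-1.08 ± 0.14, edgeR adjusted p = 9.8e-05).

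CEP250, the C-Nap1 linker protein, fell by 0.80 ± 0.08 in H1299 and by 0.78 ± 0.14 in H1703, while CEP68, another linker protein, was called in neither line (0.10 ± 0.12 in H1299 and -0.04 ± 0.14 in H1703). The distal appendage genes, needed to dock the centriole at the membrane, differed among themselves. CEP164 fell in both lines (-0.50 ± 0.11 in H1299 and -0.66 ± 0.14 in H1703), and CEP83, the first appendage protein to be laid down, fell in H1299 (-0.81 ± 0.18) and was at 0.08 ± 0.13 in H1703. CEP89 (ENSG00000121289, chr19:32875925-32971991) rose: it had 131, 136 and 135 CPM in H1299 with SAHA, against 105, 110 and 101 CPM with DMSO. It had 75.1, 77.6 and 70.8 CPM in H1703 with SAHA, against 60.6, 68.7 and 62.0 CPM with DMSO. All SAHA libraries stood above the DMSO libraries of their line, by little in H1703. The log2 fold change was 0.31 ± 0.07 in H1299 (edgeR adjusted p = 0.00538) and 0.25 ± 0.08 in H1703 (edgeR adjusted p = 0.0242). In H1703 the call was lost without library 1 or 2 of SAHA (0.23 and 0.22), without library 1 or 3 of DMSO (0.20 and 0.22) and with no filter on low counts (0.22, edgeR adjusted p = 0.0590). NIN, ninein of the subdistal appendages, fell in H1299 (-0.61 ± 0.14) and was at 0.03 ± 0.08 in H1703, and CEP170B, the paralog of CEP170, rose in H1299 (0.29 ± 0.09) and was at -0.18 ± 0.11 in H1703. The CEP170B call was lost without DMSO library 1 or 3 of H1299 (0.25 in each case).

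Of the 11 satellite and cilium genes, 7 fell and 3 rose in H1299 (median -0.64), where 30.4% of all genes were lower and 33.3% higher. In H1703, 5 fell and 3 rose (median -0.30), where 32.6% of all genes were lower and 34.7% higher. PCM1, the scaffold of the satellites (ENSG00000078674), had 43.1, 28.5 and 41.2 CPM in H1299 with SAHA, against 102, 102 and 120 CPM with DMSO. It had 52.6, 51.9 and 62.8 CPM in H1703 with SAHA, against 83.8, 93.1 and 87.5 CPM with DMSO. Both lines had their SAHA libraries wholly below DMSO, and the log2 fold change was -1.57 ± 0.16 in H1299 (edgeR adjusted p = 3.9e-05) and -0.64 ± 0.10 in H1703 (edgeR adjusted p = 2.9e-04). CEP72 (ENSG00000112877, chr5:612272-667168), a satellite protein that brings CEP290 to the cilium, had 6.85, 7.24 and 8.37 CPM in H1299 with SAHA, against 16, 18.2 and 19.1 CPM with DMSO. It had 8.07, 9.51 and 7.28 CPM in H1703 with SAHA, against 16.9, 16.1 and 17.1 CPM with DMSO. Groups were apart in both lines: the log2 fold change was -1.29 ± 0.14 in H1299 (edgeR adjusted p = 3.7e-05) and -0.98 ± 0.14 in H1703 (edgeR adjusted p = 1.4e-04). CEP72 shares 11.3% of its exonic bases with TPPP on the opposite strand, a gene that rose to 67.3 ± 4.95 CPM in H1299 with SAHA, against 2.21 ± 0.282 CPM with DMSO, and to 58.0 ± 4.66 CPM in H1703 with SAHA, against 19.1 ± 1.93 CPM with DMSO (SD, n = 3), while CEP72 fell.

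CEP290, the transition zone gene, fell by 1.41 ± 0.28 in H1299 and by 0.49 ± 0.15 in H1703. In H1703 its call was lost without SAHA library 3 (-0.41) or DMSO library 2 (-0.36) and in the fit over all 12 libraries (-0.50, edgeR adjusted p = 0.0743). OFD1, which limits centriole length and is needed for the cilium, fell by 0.55 ± 0.13 in H1299 and by 0.37 ± 0.14 in H1703, where the call was lost without library 2 or 3 of SAHA (-0.28 and -0.40), without library 1 or 3 of DMSO (-0.27 and -0.41) and with DESeq2 (-0.35, DESeq2 adjusted p = 0.0618). CEP78, a ciliary protein of the centriole wall, fell by 0.64 ± 0.11 in H1299 and by 0.81 ± 0.14 in H1703. CEP126, which helps organise microtubules at the base of the cilium, fell in H1299 (-0.67 ± 0.18) and was at -0.10 ± 0.13 in H1703.

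The satellite and cilium genes that rose included CEP131 and CEP19. CEP131 (ENSG00000141577, chr17:81189593-81222999), a satellite protein, had 53.8, 60.9 and 55.4 CPM in H1299 with SAHA, against 35.8, 34.2 and 35.7 CPM with DMSO. It had 35.6, 35.6 and 33.2 CPM in H1703 with SAHA, against 28.5, 27.6 and 28.4 CPM with DMSO. Its SAHA libraries were all above DMSO, with a log2 fold change of 0.64 ± 0.09 in H1299 (edgeR adjusted p = 2.5e-04) and 0.33 ± 0.09 in H1703 (edgeR adjusted p = 0.00835). CEP19, which brings the small GTPase RABL2 to the base of the cilium, rose by a log2 of 0.78 ± 0.12 in H1299 and 0.72 ± 0.15 in H1703. CEP41, a cilium protein linked to tubulin glutamylation, was at 0.35 ± 0.26 in H1299 and 0.32 ± 0.19 in H1703 and was called in neither, though it passed in H1299 without DMSO library 1 (0.59).

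CEP55 (ENSG00000138180, chr10:93496632-93529092), which recruits the abscission machinery to the midbody at the end of cell division, had 70.8, 59.5 and 69.7 CPM in H1299 with SAHA, against 169, 177 and 184 CPM with DMSO. In H1703 it had 20.8, 19.8 and 17.2 CPM with SAHA, against 103, 106 and 99.8 CPM with DMSO. The libraries of each group were close together and the groups far apart. CEP55 fell 2.74-fold in H1299 (log2 -1.45 ± 0.09, edgeR adjusted p = 1.8e-06) and 5.25-fold in H1703 (log2 -2.39 ± 0.10, edgeR adjusted p = 5.4e-08), the smallest adjusted p of the 46 genes in H1703.

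The remaining genes, whose roles are less clear, included the largest rise. CEP295NL (ENSG00000178404, chr17:78870910-78903217), a gene named for its likeness to CEP295, had 12, 26 and 21 counts in H1299 with SAHA, against 24, 28 and 25 with DMSO, which overlapped (log2 -0.39 ± 0.33, edgeR adjusted p = 0.330). In H1703 it had 34, 46 and 44 counts with SAHA, against 18, 21 and 19 with DMSO, with no overlap (log2 1.10 ± 0.24, edgeR adjusted p = 0.00270). At these counts its level was 2.61 ± 0.326 CPM in H1703 with SAHA, against 1.23 ± 0.0725 CPM with DMSO (SD, n = 3). Of the exonic bases of CEP295NL in GENCODE 44, 9.9% lie in exons of TIMP2 on the same strand. There the gene runs from 78890579 to 78903217, a shorter stretch than the one counted, whose overlap with TIMP2 was not measured. TIMP2 stood at 434 ± 340 CPM in H1703 with SAHA, against 288 ± 7.78 CPM with DMSO (SD, n = 3). Of its SAHA libraries, 1 was at 826 CPM and the others at 236 and 239 CPM. CEP112 (ENSG00000154240, chr17:65635538-66192084) had 7.86, 5.10 and 7.09 CPM in H1299 with SAHA, against 6.04, 6.64 and 9.09 CPM with DMSO, which overlapped (-0.17 ± 0.22, edgeR adjusted p = 0.525). It had 9.79, 10.4 and 10.9 CPM in H1703 with SAHA, against 18.8, 20.4 and 21.5 CPM with DMSO, with no overlap (-0.94 ± 0.12, edgeR adjusted p = 7.5e-05). CEP85L fell in H1299 (-0.34 ± 0.14, edgeR adjusted p = 0.0498), a call lost in 11 of 12 alternatives, the replicate block among them (log2 -0.35, edgeR adjusted p = 0.0884). CEP95 rose in H1703 (0.38 ± 0.13, edgeR adjusted p = 0.0256), a call lost with the replicate block (log2 0.37, edgeR adjusted p = 0.0509), without SAHA library 3 (0.29) and without DMSO library 1 or 3 (0.33 and 0.32).

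The SAHA effect differed between the lines, as H1703 minus H1299, for 14 of the 46 genes (34.9% of the 19105 genes tested): 7 with a positive difference (15.2%, where 13.7% of all genes were positive) and 7 with a negative one (15.2%, against 21.2%). With DESeq2's RLE scaling in place of TMM, the split was 9 positive and 5 negative. The median difference of all genes was -0.09 with TMM and -0.02 with RLE scaling. Differences come from the fit over 12 libraries, so they need not equal the subtraction of the effects fitted within each line. Differences of 2-fold or more were called positive for 2 genes (6.09% of all genes) and negative for 2 (12.7%). STIL and CEP55 fell further in H1703, with differences of -1.49 ± 0.35 (edgeR adjusted p = 0.00587) and -1.01 ± 0.13 (edgeR adjusted p = 3.3e-05). CEP112 (-0.85 ± 0.25, edgeR adjusted p = 0.0172) and CEP128 (-0.79 ± 0.21) fell in H1703 alone among the calls. CEP170B (-0.54 ± 0.14), CEP131 (-0.38 ± 0.12) and CDK5RAP2 (-0.31 ± 0.11) also had negative differences. With RLE scaling the differences of CEP131 and CDK5RAP2 were -0.31 and -0.24 and lost the call (edgeR adjusted p = 0.0535 and 0.116). The value of STIL was -1.75 without the DMSO library of H1703 that stood apart.

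Among positive differences, CEP295NL (1.42 ± 0.41, edgeR adjusted p = 0.0148) and CEP63 (0.72 ± 0.19) rose in H1703 and not in H1299. CEP162 (ENSG00000135315, chr6:84124241-84227635), an axoneme protein that starts the transition zone, had 3.5, 3.21 and 3.61 CPM in H1703 with SAHA, against 3.92, 5.05 and 3.90 CPM with DMSO, and 6.97, 4.53 and 4.94 CPM in H1299 with SAHA, against 12.9, 13.0 and 18.1 CPM with DMSO. The SAHA libraries were below DMSO in both lines, by little in H1703, where the change did not pass (-0.30 ± 0.19), and by 2.76-fold in H1299 (-1.46 ± 0.21, edgeR adjusted p = 2.3e-04). The difference of CEP162 was 1.09 ± 0.29 (edgeR adjusted p = 0.00887), and that of PCM1, which fell less in H1703, was 0.86 ± 0.19 (edgeR adjusted p = 0.00326). CEP83 (0.81 ± 0.23), NIN (0.56 ± 0.17) and PCNT (0.45 ± 0.16) also had positive differences. With the replicate block the differences of PCNT, CEP131 and CDK5RAP2 kept their size and lost the call (edgeR adjusted p = 0.0502, 0.0656 and 0.0983). That of CDK5RAP2 was lost in 14 of 16 alternatives and that of PCNT in 9 of 16, and that of NIN without DMSO library 3 of H1299 (0.47).

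Of the 9 duplication genes, STIL and CEP63 had a called difference and the other 7 had none, where 34.9% of all genes had one. The difference was -0.21 ± 0.26 for SASS6 and 0.12 ± 0.26 for CEP152, errors that leave room for differences of either sign. Over the 46 genes, the log2 fold changes of H1703 and H1299, which have separate DMSO libraries, had a Pearson r of 0.78 and a Spearman rho of 0.76 and the same sign for 38 genes (82.6%). Over the 15654 genes tested in both lines these were 0.67, 0.68 and 76.1%. They are given as a description across genes, which share their libraries. Within the 46 genes, the fold change did not closely follow the gene length implied by FPKM (rho -0.13 in H1703 and -0.17 in H1299). Nor did it closely follow the FPKM under DMSO (rho -0.15 and -0.08). Over all genes tested the rho with FPKM was -0.32 in H1703 and -0.41 in H1299.

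**Figure D3:**
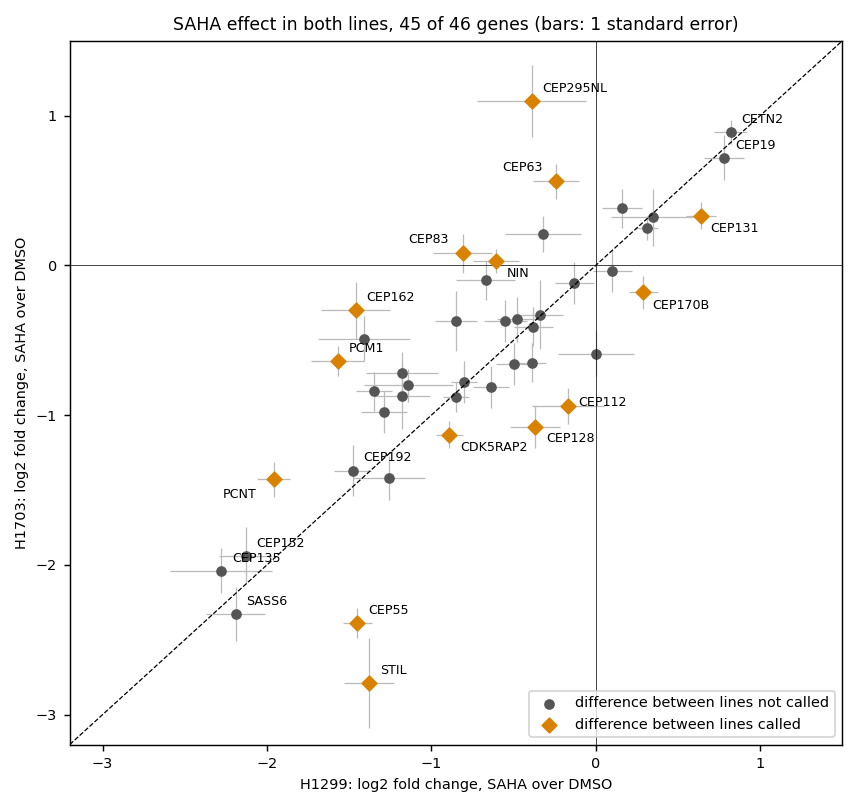
Log2 fold change, SAHA over DMSO, in H1703 (vertical) against H1299 (horizontal) for 45 of the 46 genes, with bars of 1 standard error; orange diamonds are the 14 genes whose difference between lines passed the adjusted p of 0.05, and the dashed line marks equal change. STIL and CEP55 lie below the line and CEP295NL, CEP162 and PCM1 above it, while SASS6, CEP152 and CEP135 lie near it.

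Partners of these proteins that carry other names were followed as a list of 47 genes, of which 46 were tested (CETN1 was at 0). In H1299, 36 were lower (30.4% of all genes were) and 1 was higher (33.3% of all genes), with a median of -0.81. In H1703, 38 were lower (32.6% of all genes) and 3 were higher (34.7%), with a median of -1.06. The difference between lines was negative for 20 (21.2% of all genes) and positive for 3 (13.7% of all genes). Its median was -0.44, where that of all genes was -0.09. ASPM, a spindle pole protein, fell to 3.32 ± 0.927 CPM in H1703 with SAHA, against 81.4 ± 11.6 CPM with DMSO (log2 -4.58 ± 0.20), and to 11.7 ± 3.08 CPM in H1299 with SAHA, against 108 ± 23.1 CPM with DMSO (log2 -3.24 ± 0.24). PLK1, the kinase that matures the centrosome in mitosis, fell to 6.76 ± 0.900 CPM in H1703 with SAHA, against 132 ± 22.4 CPM with DMSO, and to 38.5 ± 5.79 CPM in H1299 with SAHA, against 151 ± 12.4 CPM with DMSO (SD, n = 3 for each). PLK4, the kinase that starts duplication, fell by 3.43 ± 0.16 on the log2 scale in H1703 and by 1.86 ± 0.14 in H1299, a difference of -1.64 ± 0.21.

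NEK2, which cuts the linker between centrosomes, fell by 3.48 ± 0.13 in H1703 and by 1.29 ± 0.11 in H1299, and AURKA, the mitotic kinase that CEP192 recruits, fell by 3.41 ± 0.16 in H1703 and by 2.00 ± 0.29 in H1299. The partners that rose were few: SPICE1, a spindle and centriole protein, in both lines (0.33 ± 0.10 in H1703 and 0.68 ± 0.14 in H1299), and in H1703 TUBGCP6, a subunit of the γ-tubulin ring complex (0.63 ± 0.13), and KIZ, a spindle pole protein (0.39 ± 0.13). The 12 proliferation genes had medians of -3.2 in H1703 and -1.50 in H1299. Their difference was negative for 10 (21.2% of all genes) and positive for 1 (13.7% of all genes). Its median was -1.65, whereas the median difference of the 46 centrosome genes was 0.01.

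**Figure D4:**
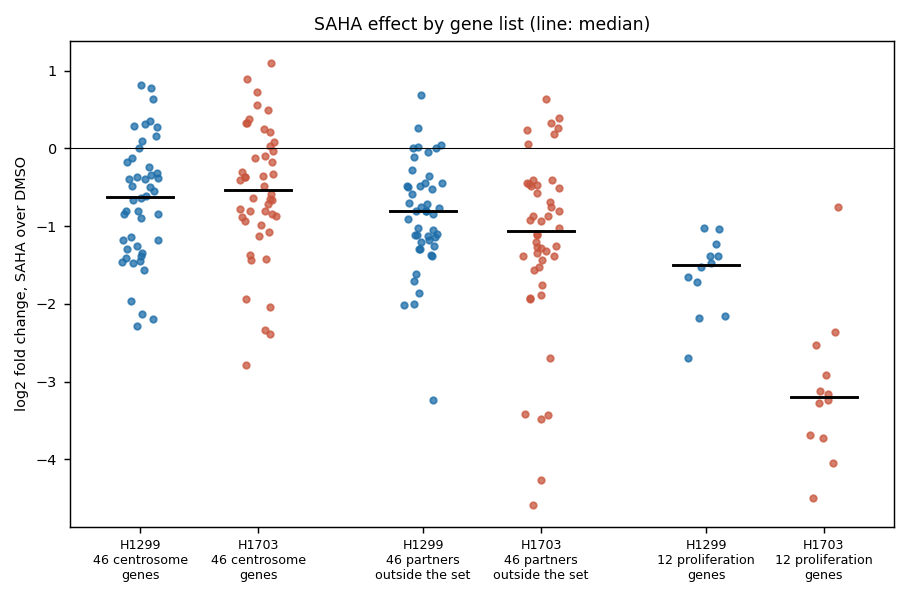
Log2 fold change, SAHA over DMSO, of each gene of 3 lists in H1299 (blue) and H1703 (red), with the list's median as a line. The 46 centrosome genes have medians of -0.62 and -0.54, the 46 partners -0.81 and -1.06, and the 12 proliferation genes -1.50 and -3.2, in H1299 and H1703 in that order.

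With DMSO alone, H1703 and H1299 differed in 30 of the 46 genes (66.5% of 19105 genes): 27 were lower in H1703 (58.7%, where 32.2% of all genes were lower) and 3 were higher (6.52%, against 34.3%), with a median log2 difference of -0.43, where that of all genes was 0.00. At 2-fold or more, 8 were lower (16.5% of all genes) and 2 were higher (20.9%). This comparison shares its DMSO libraries with the SAHA comparisons. CEP162 (log2 -1.77 ± 0.20), CEP192 (-1.43 ± 0.14) and PCNT (-1.42 ± 0.11) were the lowest in H1703 relative to H1299, and all 4 genes of the pericentriolar matrix were lower there. CEP112 (1.47 ± 0.18), CETN2 (1.19 ± 0.09) and CEP68 (0.43 ± 0.14) were the 3 that were higher in H1703.

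Compared per length, as deposited FPKM, CEP55 and CETN2 stood above the other centrosome genes under DMSO, in either line. CEP55 averaged 4.84 FPKM in H1703 with SAHA, against 27.3 FPKM with DMSO, and 20.6 FPKM in H1299 with SAHA, against 53.8 FPKM with DMSO. CETN2 averaged 60.4 FPKM in H1703 with SAHA, against 35.0 FPKM with DMSO, and 32.6 FPKM in H1299 with SAHA, against 17.6 FPKM with DMSO, so that CETN2 was above CEP55 in both lines with SAHA. The other 44 genes lay between 0.215 FPKM (CEP295NL) and 6.6 FPKM (CEP170B) in H1703 with DMSO, and between 0.302 FPKM (CEP295NL) and 11.0 FPKM (PCNT) in H1299 with DMSO. PCNT stood at 1.24 FPKM in H1703 with SAHA and 2.97 FPKM in H1299 with SAHA. The cartwheel genes SASS6, STIL and CEP135 stood at 0.532, 0.369 and 0.273 FPKM in H1703 with SAHA, against 2.89, 2.75 and 1.21 FPKM with DMSO.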

How the data were processed

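Per the labels' protocols, polyadenylated RNA was sequenced in pairs of 150-base reads; directional and un-stranded libraries are both named, so counts of overlapping genes are uncertain. The authors deposited a table per line with raw counts and FPKM, per the file headers. Count over FPKM and column total stayed the same for a gene across libraries (within 1% of its median in 100% of 304680 values). That median was taken as the gene length, and it was not checked against an independent length. FPKM values were otherwise used only for levels between genes. The submitters' processing notes name HISAT2 2.1.0, StringTie 1.3.3b, edgeR 3.30.3 and GRCh38, without roles.

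Low counts were removed with filterByExpr, which asked for about 10 counts in as many libraries as a group holds, not in each library, and 15 in total. After TMM scaling, a robust quasi-likelihood model was fitted to the counts in edgeR 4.0.16 under R 4.3.3, with Benjamini-Hochberg adjustment over all genes tested. It set 3 libraries against 3 in each line, and differences between lines came from 1 fit over 12 libraries. The fit was tested on simulated data. SE is the log2 fold change over the root of F. The alternatives were RLE scaling, DESeq2 1.42.0, limma 3.58.1 voom and a joint fit (both only within lines), no filter, a replicate block and leaving out each library. The repeat numbers pair the libraries by the labels' batch tag, though deviations of same-numbered libraries correlated only at -0.031 to 0.033. Chi-square per degree of freedom between libraries of a group was 10.9 to 24.7, above sampling noise. Overlapping exons came from GENCODE 44, where 15 of the 46 genes have the ends given in the files.

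The genes and lists were chosen with earlier results of these data known. Genes given in full had the smallest adjusted p of their role group in a line, or the smallest in the other direction, or were among the 3 most positive and 3 most negative called differences; they are given in both lines. Partner genes named were the 3 lowest and 3 highest called per line, plus PLK4, chosen after its values were seen. Values of 1 of the 46 genes are not reported here; it stays in the counts and medians.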

Additional observations from a re-analysis of the deposited data

Results flagged for a closer look

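The SAHA effect, as a log2 difference of H1703 minus H1299, passed the edgeR test of the difference itself for 14 of the 46 genes (30.4%, where 34.9% of all genes passed), 7 negative and 7 positive. The negative ones were STIL (-1.49), CEP55 (-1.01), CEP112 (-0.85), CEP128 (-0.79), CEP170B (-0.54), CEP131 (-0.38) and CDK5RAP2 (-0.31). The positive ones were PCNT (0.45), NIN (0.56), CEP63 (0.72), CEP83 (0.81), PCM1 (0.86), CEP162 (1.09) and CEP295NL (1.42). CEP295NL rests on 12 to 46 counts per library.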

How the results depend on the processing

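The counts of genes called kept to within 1.5 times the reported ones under the alternatives run for each comparison, except that genes higher in H1703 than in H1299 under DMSO, 3 as reported, ranged from 2 to 5 when 1 library was left out, with 5 without SAHA replicate 2 or DMSO replicate 3 of H1299. When 1 library was left out, genes lower with SAHA ranged from 28 to 31 in H1299 and from 24 to 26 in H1703, and genes higher from 4 to 6 and from 6 to 8. With the replicate block, paired by repeat, 29 were lower and 5 higher in H1299 and 27 lower and 7 higher in H1703, and 7 differences were positive and 5 negative. In the block, CEP85L lost the call in H1299, CEP95 lost it and CEP44 gained it in H1703 (log2 -0.37, edgeR adjusted p = 0.0470), and PCNT, CEP131 and CDK5RAP2 lost it for the difference between lines.

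Among the SAHA effects of the 46 genes in each line and 16 differences between lines, the sign changed for values that were not called: CETN3 in H1299 (0.00 with limma-voom, with no filter and with the replicate block, and -0.19 to 0.18 when 1 library was left out), and, when 1 library was left out, CEP112 in H1299 (-0.30 to 0.01), CEP68 (-0.17 to 0.03) and NIN (-0.01 to 0.08) in H1703, and the differences between lines of SASS6 (-0.39 to 0.02) and CEP152 (-0.13 to 0.26). The difference of CDK5RAP2 lost its call in 14 of 16 alternatives, that of PCNT in 9 and that of CEP131 in 4. The cause was not tested. Other single-gene differences between lines, and all single-gene differences under DMSO, were refitted for the counts of genes called. Their values under the alternatives were not compared gene by gene. With 3 libraries per group the precision of genes at a few counts, such as CEP295NL, is low.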
